A study of Mus musculus with 2 samples.

Results

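Imprinted genes are expressed from 1 parental copy, the choice being set by DNA methylation laid down in the egg or the sperm. The 37 imprinted genes described here form a list drawn up with earlier results of these data known, although its rule uses no measured value. All 37 were found in the gene table of mouse assembly GRCm38.p6, where they lie in 19 imprinted domains. Around each gene, the interval and 10 kb on each side were searched for open chromatin, and 50 of the 23364 open-chromatin regions of the study fell in these windows. Accessibility was measured by ATAC-seq, where Tn5 transposase cuts and tags DNA that it can reach, in mast cells (IgE-binding granulocytes of tissues) grown from the bone marrow of female mice aged 3 to 4 weeks. One culture came from wild-type mice and 1 from littermates lacking Dnmt3a (DNMT3A-KO), and both were kept for 4 weeks in interleukin 3. The labels do not give the allele, the stage or cell type of the deletion, or whether marrow was pooled.

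In the germ line, Dnmt3a with its partner Dnmt3l places the methylation of imprinting control regions. After fertilisation, ZFP57 and TRIM28 protect these marks and Dnmt1 copies them at each division, so that a somatic cell normally carries 1 methylated and 1 unmethylated copy. Many imprinted genes act in fetal growth, placenta and brain and are weakly used in blood cells. Methylation, allele of origin and RNA were not measured in these libraries.

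A peak is an interval that the authors called as enriched in 1 library, and the wild-type and knockout lists hold 17170 and 19684 peaks. Peaks sharing at least 1 base were merged into a region, which is either held by both lists (shared) or by only 1 of them. Strength is given as the authors' −log10 q-value, which ranks peaks within their own list, and as the summit pileup, the number of overlapping fragments at the peak's highest point. Pairs of pileups are given as wild type, then knockout. The median pileup over all peaks was 9 in both libraries, and total read numbers are not in the lists. With 1 library per genotype there was no replicate and no test between genotypes, and exact (Clopper-Pearson) 95% intervals of shares cover counting error only. Dnmt3a (chromosome 12, 3801559 to 3914443) contained 6 wild-type and 5 knockout peaks, and its wild-type peak at 3897094 to 3897359 (pileup 21) had no knockout partner. All 12 mast cell marker genes checked had a peak in their window in at least 1 list (10 for wild type, 11 for knockout). Markers of other cells also had peaks, 4 and 5 of 7 for neutrophils, 3 and 4 of 6 for macrophages, 1 and 2 of 4 for B cells, 3 and 4 of 5 for T cells and 1 and 3 of 5 for stroma. Over all 21631 protein-coding genes, 52.3% had a wild-type and 55.5% a knockout peak in their window. Whether cells other than mast cells took part in the results was not tested.

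Of the 37 genes, 22 had at least 1 region in their window and 15 had none. The 15 were the 3 genes of the Peg3 domain (Peg3, Zim1 and Usp29), Snrpn, Ndn and Magel2 of the Prader-Willi region, Dlk1 and Meg3, Peg10 and Sgce, Mest, Plagl1, H19, Cdkn1c and Ascl2. Among them are a growth-restraining cyclin-dependent kinase inhibitor (Cdkn1c), a placental transcription factor (Ascl2) and a Notch-like membrane protein of progenitor cells (Dlk1). A missing peak says that no interval passed the authors' threshold at this depth, and not that the DNA was closed. A wild-type peak was in the window of 16 genes (43.2%, interval 27.1 to 60.5) and a knockout peak in that of 20 (54.1%, 36.9 to 70.5). Over 21631 protein-coding genes the shares were 52.3% and 55.5%. Both background shares lay inside the intervals of the imprinted genes. A knockout peak and no wild-type peak was found for 6 of the 37 genes (Igf2, Nnat, Blcap, Rasgrf1, Nap1l5 and Herc3), and the reverse for 2 of the 37 (Phlda2 and Slc22a18). Over the 21631 protein-coding genes the numbers were 1498 (6.93%) and 794 (3.67%). Nnat and Blcap had the same region, Nap1l5 shared one with Herc3, and the single wild-type-only region of Phlda2 was also that of Slc22a18.

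**Figure D1:**
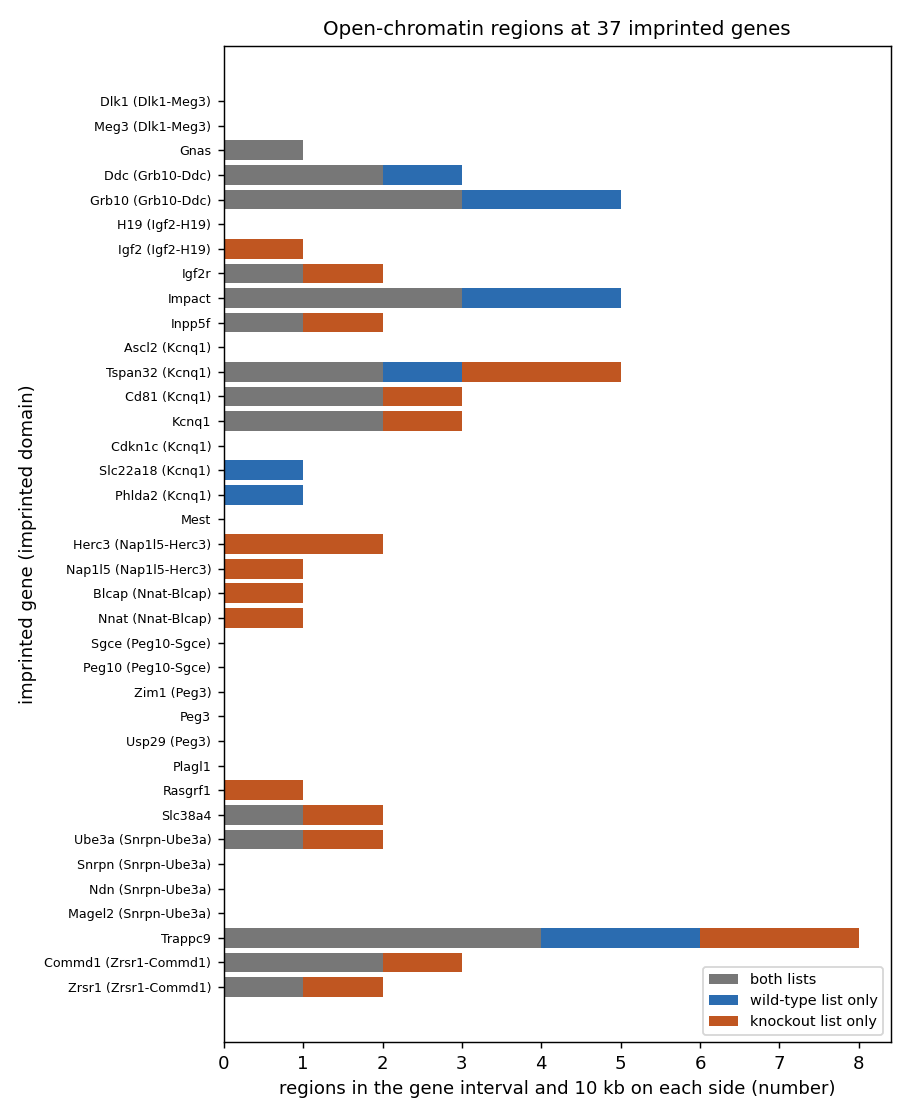
Regions in the window of each of the 37 imprinted genes (vertical axis, imprinted domain in brackets), as a number of regions (horizontal axis) held by both lists (grey), the wild-type list only (blue) or the knockout list only (orange). Trappc9 had the most, 8, while 15 genes had none, and a region in the windows of 2 genes is drawn at both.

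Promoters give the closest view of the starts of the imprinted genes, although not every start is itself known to be imprinted. The sequence table held 47 start windows (250 bases before to 50 after a transcription start) for 30 of the genes. A wild-type peak touched 3 windows and a knockout peak 5, or 6.38% and 10.6% of windows, against 20.3% and 21.7% of all 32619 windows in the table. Some genes have several windows. By gene the shares were 10% and 16.7% of the 30, against 22.5% and 24.0% of all genes in the table. H19, Peg10, Sgce, Impact, Trappc9, Cdkn1c and Kcnq1 had no window, so peaks at their starts were not counted. The 3 with a peak in both lists belong to Ube3a, the ubiquitin ligase gene imprinted in neurons, Inpp5f, a phosphoinositide phosphatase gene with an imprinted inner transcript, and Tspan32, a tetraspanin gene of blood cells. The others, of Commd1 and Blcap, were touched by knockout peaks only. At Commd1 a wild-type peak (22982074 to 22982208) ended just short of the window, which begins at 22982235. Commd1 and Blcap both host a nested gene of opposite parental expression, Zrsr1 inside Commd1 and Nnat inside Blcap.

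The 250 bases before these 5 starts are printed to show, for both lists together, how far peaks reached into them. They come from RefSeq (GRCm38.p6), run 5′ to 3′ along the gene, and have in capitals the bases inside a peak of either list.
Ube3a, chr7:59228500-59228749, plus strand: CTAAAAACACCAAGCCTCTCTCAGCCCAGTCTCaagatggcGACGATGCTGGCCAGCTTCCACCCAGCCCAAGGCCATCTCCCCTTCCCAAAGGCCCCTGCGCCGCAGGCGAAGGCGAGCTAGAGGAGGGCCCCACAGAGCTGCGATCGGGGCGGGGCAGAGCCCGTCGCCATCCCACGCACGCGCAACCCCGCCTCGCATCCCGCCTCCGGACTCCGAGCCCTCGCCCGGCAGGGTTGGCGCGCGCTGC
Commd1, chr11:22982285-22982534, minus strand: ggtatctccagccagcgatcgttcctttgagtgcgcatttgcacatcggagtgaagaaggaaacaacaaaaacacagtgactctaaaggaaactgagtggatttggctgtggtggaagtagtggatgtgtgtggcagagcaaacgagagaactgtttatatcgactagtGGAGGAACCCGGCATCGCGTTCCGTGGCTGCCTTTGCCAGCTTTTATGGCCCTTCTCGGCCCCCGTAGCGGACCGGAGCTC
Blcap, chr2:157566362-157566611, minus strand: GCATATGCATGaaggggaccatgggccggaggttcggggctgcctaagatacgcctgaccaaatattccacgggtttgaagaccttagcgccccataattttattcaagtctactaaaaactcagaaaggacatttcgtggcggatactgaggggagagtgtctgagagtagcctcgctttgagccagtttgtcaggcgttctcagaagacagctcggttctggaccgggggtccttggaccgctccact
Inpp5f, chr7:128611115-128611364, plus strand: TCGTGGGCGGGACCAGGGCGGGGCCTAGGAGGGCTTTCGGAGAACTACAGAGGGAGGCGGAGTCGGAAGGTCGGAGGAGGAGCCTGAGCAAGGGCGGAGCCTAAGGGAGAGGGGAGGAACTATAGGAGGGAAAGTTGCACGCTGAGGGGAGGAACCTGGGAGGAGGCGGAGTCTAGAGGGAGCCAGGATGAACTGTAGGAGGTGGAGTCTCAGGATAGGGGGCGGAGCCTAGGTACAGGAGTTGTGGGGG
Tspan32, chr7:143004796-143005045, plus strand: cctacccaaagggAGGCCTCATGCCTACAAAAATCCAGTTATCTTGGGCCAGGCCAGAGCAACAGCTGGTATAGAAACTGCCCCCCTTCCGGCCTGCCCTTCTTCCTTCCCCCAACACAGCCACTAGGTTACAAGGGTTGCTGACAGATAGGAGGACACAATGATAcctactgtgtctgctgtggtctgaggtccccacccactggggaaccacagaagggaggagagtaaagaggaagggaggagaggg
Of the Ube3a stretch, 202 bases lay in the wild-type peak and 242 in knockout peaks, and 24 CpG make it the most CpG-rich of the 5. For Commd1, 81 bases next to the start were covered in the knockout list and 0 in the wild-type list, and for Blcap 11 against 0. The wild-type peak at Commd1 lay on the gene side of the start and did not reach this stretch. The Inpp5f stretch was covered over 223 wild-type and 250 knockout bases. Tspan32 has 1 CpG and was covered over 118 and 106 bases. The part of the Tspan32 stretch covered in the wild-type list holds AGATAA, the core read by GATA factors, on the reverse strand. This core lies outside the knockout peak, which begins at 143004856. Searched on both strands, AGATAA occurred in 3 of the 47 start windows of imprinted genes (6.38%) and in 11.2% of all windows. TGCCGC, the core read by the imprint guardian ZFP57 when methylated, occurred in 11 (23.4%), against 11.7% of all windows. It contains a CpG, and the median window held 14 CpG at imprinted genes against 7 over all windows. Overlapping Mest windows were counted separately. Of the 11, 1 window, at Commd1, had a peak, against 1699 of 3811 windows with TGCCGC over all.

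A further pair of stretches, chosen after their values were seen, show a start with a peak in both genotypes and one with no peak. Imprinting control regions were not located here. Kcnq1ot1 is the paternal noncoding RNA that silences the Kcnq1 domain, and its start lies inside Kcnq1. Capitals mark bases inside a peak for Kcnq1ot1 and the TGCCGC match for Nap1l5, a retrogene inside Herc3.
Kcnq1ot1, chr7:143296548-143296797, minus strand: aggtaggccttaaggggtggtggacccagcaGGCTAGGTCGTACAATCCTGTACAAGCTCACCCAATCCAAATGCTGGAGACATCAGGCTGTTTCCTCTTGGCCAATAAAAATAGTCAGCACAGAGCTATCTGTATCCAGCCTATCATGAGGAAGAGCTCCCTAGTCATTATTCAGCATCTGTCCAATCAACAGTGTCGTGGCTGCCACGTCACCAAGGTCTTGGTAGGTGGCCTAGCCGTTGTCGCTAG
Nap1l5, chr6:58907127-58907376, minus strand: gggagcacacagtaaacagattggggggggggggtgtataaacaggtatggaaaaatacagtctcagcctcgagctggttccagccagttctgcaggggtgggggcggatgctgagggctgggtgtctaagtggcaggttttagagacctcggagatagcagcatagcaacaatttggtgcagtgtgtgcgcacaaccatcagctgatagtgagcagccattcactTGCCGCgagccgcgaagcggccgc
Of the Kcnq1ot1 stretch, 219 bases lay in the wild-type peak and 216 in the knockout peak. No peak of either list touched the Nap1l5 stretch.

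CpG-dense starts of imprinted genes were mostly without a peak. Of all start windows with a peak, the median held 23 CpG. At or above that number, 12 windows of imprinted genes were found, from 10 genes. Of these windows 1, that of Ube3a, had a peak (8.33%), against 57.9% of 7070 such windows in the whole table. The others belong to Ascl2, Cd81, Gnas, Grb10, Igf2, Igf2r, Phlda2, Plagl1 and Rasgrf1. The limit was set after the values were seen, overlapping Gnas windows are counted separately, and no test was made.

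**Figure D2:**
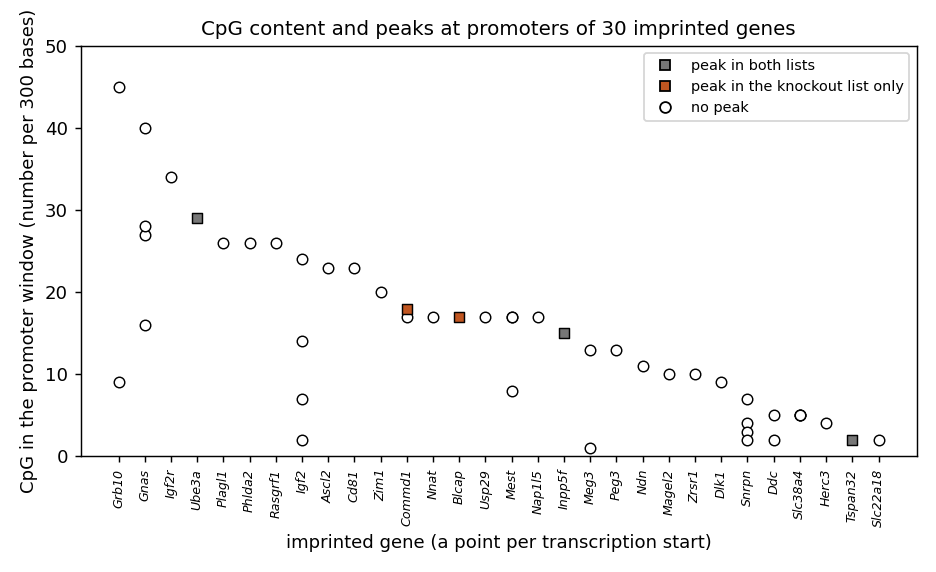
CpG number in each 300-base start window (vertical axis) for 30 imprinted genes (horizontal axis, ordered by their highest value), with grey squares for a peak in both lists, orange squares for a knockout peak only and open circles for no peak. The windows with a peak lie at 29 (Ube3a), 18 (Commd1), 17 (Blcap), 15 (Inpp5f) and 2 CpG (Tspan32), below the highest windows of Grb10 (45) and Gnas (40). At Commd1 a wild-type peak ended just short of the window.

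Among growth factor pathway genes, the receptor gene Igf2r carried the knockout-only peak with the highest −log10 q of all the imprinted genes. Igf2r encodes the receptor that clears insulin-like growth factor 2, and Airn, a paternal noncoding RNA, starts inside it. The knockout list held a peak inside Igf2r at 12724072 to 12724311 of chromosome 17 with a −log10 q of 14.9 and a pileup of 14, and the wild-type list held none there. This region lay 17.0 kb outside the Airn interval. A shared region at 12754683 to 12754927, inside both Igf2r and Airn, had pileups of 21 and 18, and the Airn start had no peak in either list. For the ligand gene Igf2, the only region in its window was a weak knockout-only peak (chromosome 7, 142675727 to 142675829, pileup 5) outside the gene, 2.83 kb from Ins2, an insulin gene.

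Grb10, an adaptor that dampens insulin receptor signalling, and its neighbour Ddc, which encodes an enzyme of serotonin and dopamine synthesis, had no knockout-only region. Together they held 8 regions, of which 5 were shared and 3 were in the wild-type list alone. The 3 shared regions inside Grb10 had pileups of 11 and 16, 7 and 6, and 7 and 9. Both wild-type-only regions of Grb10 were weak (pileups 4 and 5) and lay 6.93 and 9.93 kb outside the gene. Over the start of the next gene, Fignl1, 4.99 kb from Ddc, a shared region had pileups of 6 and 7. Inside Ddc, a shared region at 11836891 to 11837104 of chromosome 11 had a pileup of 10 in both libraries. A wild-type-only region at 11878485 to 11878653, with a pileup of 9, had the highest −log10 q (7.48) of the wild-type-only regions at imprinted genes.

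The Kcnq1 domain on chromosome 7 held 12 regions at 5 of its 7 listed genes. Both lists held 6 of them, the wild-type list alone 2 and the knockout list alone 4. A shared region at 143296463 to 143296766 covered the Kcnq1ot1 start with pileups of 22 and 23, which were nearly equal. A second shared region inside Kcnq1, a potassium channel gene, had pileups of 11 and 16, and a knockout-only one a pileup of 6. Tspan32 had 2 shared regions, with pileups of 13 and 9 at the start and 15 and 16 just inside. Its knockout-only region inside the gene (143010060 to 143010190) had a pileup of 15, the highest of any unshared region at the imprinted genes. A weak knockout-only peak (pileup 5) lay 9.61 kb outside the gene. A wild-type-only region of Tspan32 with a pileup of 10 lay 52 bp from one of the shared regions. Cd81, a tetraspanin gene active in most blood cells, had shared regions in its flanks with pileups of 8 and 12, and 21 and 27, the stronger one inside Tssc4. Its own interval held a knockout-only peak with a pileup of 6. Slc22a18, a transporter gene, and Phlda2, a placental growth restrainer, shared 1 wild-type-only region (143495185 to 143495284, pileup 6) that lay inside Slc22a18.

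Trappc9, a trafficking complex gene on chromosome 15, had the most regions, 8, of which both lists held 4 and each list alone 2. Its strong regions were in both genotypes. At 72928751 to 72929006 the pileups were 31 and 22, over the upper end of the gene (73061005 to 73061351) 30 and 27, and 6.17 kb above the gene 24 and 28. The remaining shared region had pileups of 6 and 9. The 4 unshared regions were weak, with a pileup of 5 for both wild-type-only ones and of 6 and 5 for the knockout-only ones. One of the knockout-only regions (72809991 to 72810155) lay inside Peg13, a paternally expressed noncoding RNA gene within Trappc9, 169 bp from its upper end.

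Commd1, Herc3 and Blcap each host another imprinted gene. In Commd1, which encodes a copper and NF-kB regulator, a shared region on chromosome 11 (22982004 to 22982259) had pileups of 8 and 14. It lay beside the Commd1 start, and only its knockout peak reached into the start window. A knockout-only region with a pileup of 8 followed after a gap of 1 bp, and a rule that joins neighbours within 1 kb counts both as 1 shared site. Beyond the upper end of Commd1, at 5.85 kb and over the lower end of Cct4, a shared region had pileups of 15 and 19. Zrsr1, the splicing factor retrogene inside Commd1, had no peak in its own interval. Herc3, a ubiquitin ligase gene on chromosome 6, had 2 knockout-only regions and no other, at 58880683 to 58880843 (pileup 12, −log10 q 12.8) and 58916669 to 58916823 (pileup 9, −log10 q 9.90). The second lay 9.54 kb from Nap1l5. For Blcap and Nnat, a proteolipid gene nested in it, the only region was the knockout-only peak before the Blcap start (chromosome 2, 157566601 to 157566735, pileup 7).

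**Figure D3:**
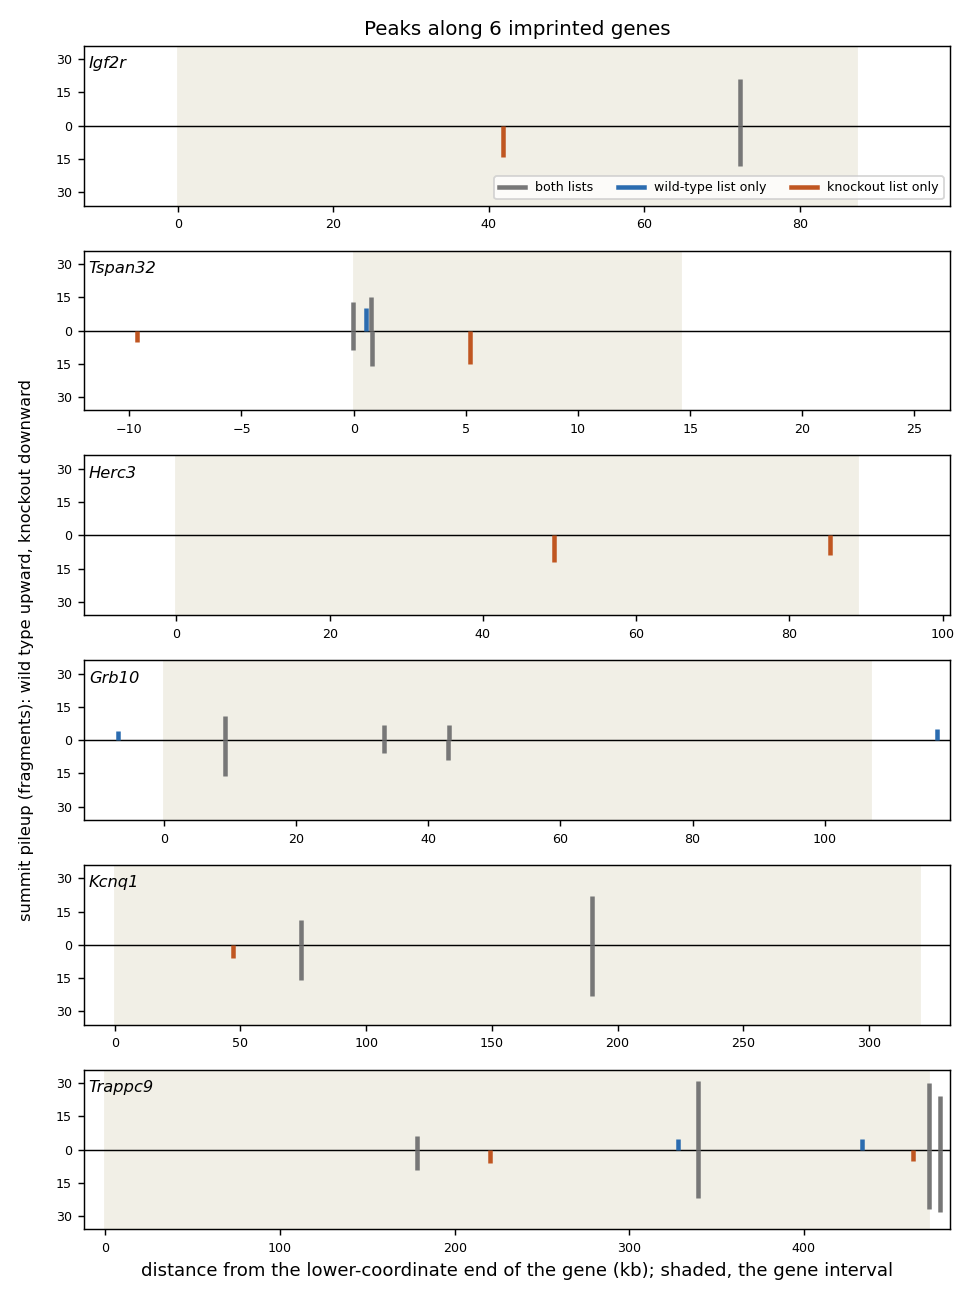
Summit pileup (vertical axis, fragments; wild type upward, knockout downward) against the distance from the lower-coordinate end of the gene (horizontal axis, kb) for 6 imprinted genes, with the gene interval shaded. Grey bars are regions of both lists, blue bars wild-type-only and orange bars knockout-only; the Igf2r peak of pileup 14 and both Herc3 peaks have no wild-type bar opposite.

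The remaining genes had a few regions each. Ube3a had a shared region over its start (chromosome 7, 59228541 to 59228841) with pileups of 22 and 23, and a knockout-only peak of pileup 11 that ended 8 bp before it. The start of Inpp5f had pileups of 23 and 25, and a knockout-only peak of pileup 5 lay inside the gene. Slc38a4, an amino acid transporter gene, had a shared region in its flank with pileups of 11 and 12 and a knockout-only peak of pileup 5. Rasgrf1, a nucleotide exchange factor gene, had 1 region, a knockout-only peak inside it (chromosome 9, 89972830 to 89973109, pileup 8, −log10 q 8.02). Gnas, the gene of a stimulatory G protein subunit, was the only gene with shared regions alone, a single region near its upper end with pileups of 4 and 5.

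Impact, a translation regulator gene on chromosome 18, was the only single-gene domain with wild-type-only and no knockout-only regions. The 2 wild-type-only peaks, at 12973163 to 12973267 and 12973825 to 12973924 and each with a pileup of 8, lay beside a shared region at 12974362 to 12974542, the nearer one 437 bp from it. That shared region had pileups of 9 and 14. The wild-type library had 3 low peaks within this stretch and the knockout library 1 higher one. Local background pileups at the shared region were 0.680 and 0.630. Both shared regions in the flanks had pileups of 6 and 5.

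Over all 50 regions, the imprinted genes divided between the lists in shares whose intervals contained those of all regions. Both lists held 25 (50.0%, interval 35.5 to 64.5), the knockout list alone 16 (32.0%, 19.5 to 46.7) and the wild-type list alone 9 (interval 8.58 to 31.4%). The last count became 4 when every peak needed a −log10 q of 5 or more and 15 with windows of 50 kb. The background over all regions was 55.1% shared, 28.0% knockout-only and 16.9% wild-type-only, and over the 19084 regions within 10 kb of a protein-coding gene 56.7%, 27.1% and 16.2%. Of the wild-type peaks at imprinted genes, 73.5% (25 of 34) were overlapped by a knockout peak, against 77.0% of all. Of the knockout peaks 61.0% (25 of 41) were overlapped, against 66.8%. The windows spanned 3.33 Mb and held 4.81 knockout-only and 2.71 wild-type-only regions per Mb, against 4.04 and 2.41 per Mb around all protein-coding genes. With both lists reduced to the same number of peaks, each list alone held 11 regions at the imprinted genes.

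**Figure D4:**
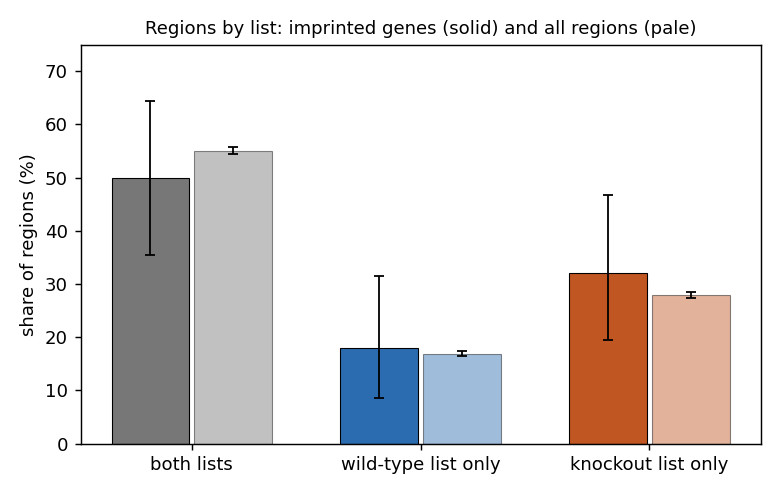
Share of regions (vertical axis, %) held by both lists, the wild-type list only and the knockout list only (horizontal axis), for the 50 regions at imprinted genes (solid bars) and all 23364 regions (pale bars), with exact binomial 95% intervals as error bars. The intervals of the imprinted genes (35.5 to 64.5% for shared regions) contain the shares of all regions in each class.

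Counted by gene, 16 of the 37 (43.2%, interval 27.1 to 60.5) had a knockout-only region in their window, against 24.2% of protein-coding genes, and 7 (18.9%) a wild-type-only region, against 16.4%. The background of 24.2% lay below the interval for knockout-only regions, that of 16.4% inside its own (7.96 to 35.2). These intervals treat the genes as separate, although 5 of the 50 regions were counted for a pair of genes. The imprinted genes were also longer (median 26.6 against 17.3 kb), and no test was made.

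Unshared regions were mostly shallow. The 16 knockout-only regions had pileups of 5 to 15 with a median of 6.5, and −log10 q values of 4.60 to 14.9. The 9 wild-type-only regions had pileups of 4 to 10 with a median of 6, and −log10 q values of 3.27 to 7.48. Over all unshared regions the median pileup was 6 in both classes. A −log10 q of at least 10 was reached by 3 knockout-only regions (Igf2r, Herc3 and Tspan32) and 0 wild-type-only ones. Over the genome, 10.7% of knockout-only and 5.92% of wild-type-only regions passed that limit. Of the 25 unshared regions, 5 (20.0%) lay within 1 kb of another region, against 19.3% of all unshared regions.

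At the 25 shared regions the pileup ranged from 4 to 31 in the wild-type library (median 11) and from 5 to 28 in the knockout library (median 14). The knockout value was the higher in 17, the wild-type value in 7, and 1 was equal. Over all 12871 shared regions the knockout value was the higher in 54.8%. The median ratio of knockout to wild-type pileup was 1.09 both at the imprinted genes and over all shared regions. The highest ratio at an imprinted gene was 1.75, at the Commd1 region, and the lowest 0.692, at the Tspan32 start. Depth was not equalised, so these ratios are a description of the 2 libraries.

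**Figure D5:**
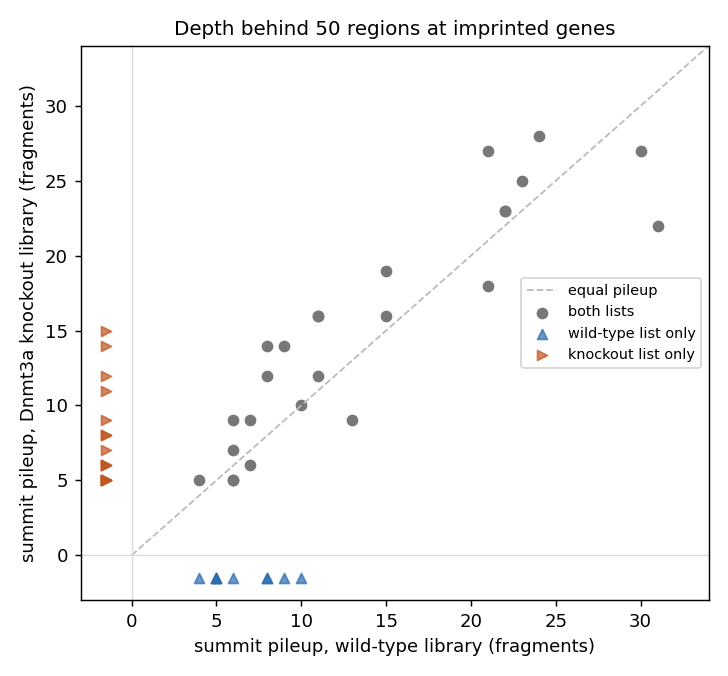
Summit pileup in the knockout library (vertical axis, fragments) against the wild-type library (horizontal axis, fragments) for the 50 regions at imprinted genes, with grey points for shared regions and, outside the zero lines, triangles for regions of 1 list. Shared regions lie along the dashed line of equal pileup, 17 above and 7 below it, and no triangle passes 15 fragments.

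Other imprinted genes and the genes that keep imprints were looked at in the same way. Of 47 further imprinted genes found in the table, 19 had a wild-type and 24 a knockout peak in their window, and both lists held 33 regions, the wild-type list alone 8 and the knockout list alone 18 (5 of these 59 regions were also in the windows above). By gene this was 40.4% and 51.1%, against 52.3% and 55.5% of protein-coding genes, and 55.9% of the regions were shared, against 55.1% of all. Differences were largest at Bcl2l1, a survival gene of blood cells (3 knockout-only and 0 wild-type-only regions), Cobl, a neighbour of Grb10 (1 against 3), and Ago2, a neighbour of Trappc9 (2 against 0). Of 20 genes that place, keep or remove imprints, 15 had a peak in each list, and of their 36 regions both lists held 25, the wild-type list alone 4 and the knockout list alone 7. Of these regions 69.4% were shared, against 55.1% of all, without a test. The share of genes with a peak was 75% in each list. Its interval (50.9 to 91.3) contained the background shares of 52.3% and 55.5%. Among these 20 genes Dnmt3a had the most regions, 8, with 5 in both lists, 2 wild-type-only and 1 knockout-only.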

How the data were processed

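ATAC-seq libraries of 1 wild-type and 1 Dnmt3a knockout mast cell culture were analysed as deposited peak lists. Per the labels' protocols, nuclei were treated with a home-made Tn5, and 50 bp single reads were sequenced (10 M stated). The tools were MACS2, Bowtie2 and Trimmomatic with build mm10 (GRCm38), per the submitters' processing notes. Versions, settings and any Tn5 shift were not given in the sources used here. The authors deposited 1 list per sample with a score (10 times the −log10 q-value), a fold enrichment ratio, and −log10 p- and q-values per peak. The fold and −log10 p gave a whole-number summit pileup for 100% of peaks (tolerance 0.001 in −log10 p).

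Peaks sharing 1 bp were merged and counted in gene intervals with 10 kb flanks, using Python 3.11.15, NumPy 2.4.6, pandas 2.3.3, SciPy 1.17.1 and Matplotlib 3.10.9. Coordinates are 1-based on mm10. The gene table (GRCm38.p6) has no strand or exons, so exons, introns and UTRs are not resolved. Strand came from the promoter table, which has 30 of the 37 genes. The pileup recovery and the merging of peaks were tested on simulated data, and the counting in gene and start windows was not. The members and lists were chosen with earlier results of these data known. Every gene is accounted for, and values are given for genes with an unshared region, a peak over a start or one of the 5 highest region counts. From each further list up to 3 genes were named by how far the numbers of their unshared regions differed between lists, and of equal genes the one richer in regions came first. Equal genes beyond Dnmt3a were left unnamed. AGATAA, the CpG limit and the Kcnq1ot1 and Nap1l5 sequences were added after values were seen. Alternatives were other −log10 q limits, equal list lengths, other overlap rules, other windows and joining of neighbouring regions.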

Additional observations from a re-analysis of the deposited data

How the results depend on the processing

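No paired analysis was possible because there was only 1 library of each genotype, and for the same reason no library could be left out. Over 89 recalculated values, 83 stayed within 1.5 times the count or within the interval of the share. Some of these could not move. Other overlap rules leave the genes with a peak at 16 and 20, and limits on unshared peaks only leave 25 shared regions. Intervals were also wide, 42.5 to 82.0% for the knockout-only share of unshared regions, so the tally says little about stability. The wild-type-only count of 9 became 4 when every peak needed a −log10 q of 5 or more, 4 with that limit on unshared peaks only and 15 with windows of 50 kb. With a −log10 q of at least 10 for unshared regions (chosen after the data were seen) it became 0 and the knockout-only count 3, so that 100% of unshared regions were knockout-only. Stricter limits leave fewer regions by construction. The knockout-only share of unshared regions, 64.0%, was 50.0% with equal numbers of peaks (11 against 11) and 77.8% with the limit of 5 on every peak. Joining neighbours within 1 kb (also added later) gave 24 shared, 14 knockout-only and 6 wild-type-only sites. Start windows of 1 kb on each side had a wild-type peak at 4 genes and a knockout peak at 5. The wild-type peak at Commd1, just short of the shorter window, was counted here. A median pileup of 9 limits what either list can hold: a site just under the threshold in 1 library counts as unshared.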

Other observations

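Known parental expression, taken from textbook knowledge after the values were seen, divides the genes as follows. A region lay in the window of 11 of 16 genes known for maternal expression in some tissue and of 9 of 19 known for paternal expression, against 59.2% of all protein-coding genes. Median lengths were 23.9 and 26.6 kb. A region lay inside the gene itself for 9 of the 16 and 5 of the 19. Of the 11, 5 were in the Kcnq1 domain, where Phlda2 and Slc22a18 had the same single region. The regions of Zrsr1 and Nnat, of the paternal group, were also in the windows of Commd1 and Blcap, of the maternal group. Gnas and Herc3 were placed in neither group. No test was made, and allele of origin was not measured.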
